A study of Mus musculus with 14 samples.

Results

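Marker genes of T cells, NK and cytotoxic lymphocytes, B cells and neutrophils were followed in microglia that had been isolated by sorting from the ipsilateral mouse cortex. The list held 34 genes, grouped by the cell class they mark, and 33 had an array row annotated to exactly 1 symbol. They made up 33 of the 19938 genes that could be named in this way, and each of the 33 had a single row. The T cell class held 9 measured genes, the NK and cytotoxic class 10, the B cell class 4 and the neutrophil class 10. Lck, the kinase of the T cell receptor, is not analysed here.

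T cells recognise antigen through a receptor that signals by way of the CD3 chains, with CD4 or CD8 as co-receptor. NK cells and cytotoxic T cells kill with perforin and granzymes, and B cells signal through the CD79 heterodimer of their antigen receptor. Neutrophils carry granule proteins and the calcium-binding pair S100A8 and S100A9. These cells can enter the brain from the blood after a stroke, whereas microglia are its resident macrophages, so the genes serve in sorted microglia as markers of other leukocytes.

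All mice were male, 12 to 14 weeks old and of the C57BL/6J strain by their labels. They carried either the wild-type or the TLR4-/- genotype, the latter affecting the Toll-like receptor for bacterial lipopolysaccharide and endogenous danger signals. Ischaemia and reperfusion (I/R) was a 15 min blockage of the middle cerebral artery with a filament, followed by 72 h of restored flow, and sham surgery was its control. Both operations were done under inhaled isoflurane. The groups were wild-type sham (arrays A to D, n = 4), wild-type I/R (arrays A to D, n = 4), TLR4-/- sham (n = 3, arrays A, B and D) and TLR4-/- I/R (n = 3, arrays B, C and D). The letters come from the sample titles, which do not say whether they link an array of 1 group to one of another. The titles of the I/R samples carry the abbreviation IPC, which the sources used here do not explain. Neither the antigens used in the sort nor the way the TLR4-/- allele was made is stated there. No label ties each array to its own animal, and p-values therefore reflect only sample-to-sample spread, part of which may be technical.

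The sequences upstream of 5 neutrophil genes are shown first, because these 5 were highest of all 14 arrays on a single array, wild-type I/R array C. They are S100a9 and S100a8, the calprotectin pair, Ngp, which encodes neutrophilic granule protein, Mmp8, the neutrophil collagenase gene, and Retnlg, which encodes resistin-like gamma. Each window covers the 250 bases before the gene's annotated start in RefSeq on build GRCm38.p6, written 5′ to 3′ on the gene's strand. Capitals mark matches on either strand to TTGCNNAA, a C/EBP-type motif whose reverse complement is TTNNGCAA. The C/EBP family includes regulators of granulocyte genes.
S100a9 promoter, chr3:90695722-90695971, minus strand: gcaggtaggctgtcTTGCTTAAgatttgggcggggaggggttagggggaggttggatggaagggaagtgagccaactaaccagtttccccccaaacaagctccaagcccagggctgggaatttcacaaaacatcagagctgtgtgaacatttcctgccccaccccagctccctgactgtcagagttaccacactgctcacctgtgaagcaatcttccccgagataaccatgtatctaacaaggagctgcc
S100a8 promoter, chr3:90668821-90669070, plus strand: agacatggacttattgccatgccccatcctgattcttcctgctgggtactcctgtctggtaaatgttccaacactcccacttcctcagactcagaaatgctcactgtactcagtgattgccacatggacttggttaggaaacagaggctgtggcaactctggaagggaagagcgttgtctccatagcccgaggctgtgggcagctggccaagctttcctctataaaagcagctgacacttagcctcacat
Ngp promoter, chr9:110419558-110419807, plus strand: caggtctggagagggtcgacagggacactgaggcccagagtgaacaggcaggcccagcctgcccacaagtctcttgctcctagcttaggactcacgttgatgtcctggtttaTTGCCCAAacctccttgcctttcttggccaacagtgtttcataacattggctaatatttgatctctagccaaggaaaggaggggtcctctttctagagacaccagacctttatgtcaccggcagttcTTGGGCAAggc
Mmp8 promoter, chr9:7558179-7558428, plus strand: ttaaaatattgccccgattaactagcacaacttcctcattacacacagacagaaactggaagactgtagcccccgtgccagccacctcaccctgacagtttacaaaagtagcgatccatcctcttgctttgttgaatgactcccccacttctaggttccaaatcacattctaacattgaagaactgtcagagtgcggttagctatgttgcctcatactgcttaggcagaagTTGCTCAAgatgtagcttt
Retnlg promoter, chr16:48872358-48872607, plus strand: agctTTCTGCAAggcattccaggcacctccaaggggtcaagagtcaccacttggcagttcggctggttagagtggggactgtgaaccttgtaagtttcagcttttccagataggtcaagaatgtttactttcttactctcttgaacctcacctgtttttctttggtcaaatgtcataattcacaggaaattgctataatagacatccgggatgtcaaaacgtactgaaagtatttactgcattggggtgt

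S100a9 had 1 match, starting 236 bases before the annotated start, Mmp8 had 1 at 19 bases and Retnlg had 1 at 246 bases. Ngp had 2 matches, at 138 and 11 bases, and S100a8 had none. Thus 4 of these 5 windows held the motif, against 0 of the windows of the other 4 neutrophil genes with an entry and 9.56% of 32851 windows of the same length. GAGGAA (reverse complement TTCCTC), a PU.1-type motif that cannot share bases with the first, was found in 2 of the 5 windows, 3 of the other 4 and 23.3% of all windows. A match describes letters in a window and is not evidence of binding. The 5 genes were grouped by their values on array C after these had been seen, so the contrast with the other 4 is a description and not a test. An entry existed for 26 of the 34 listed genes. Over all classes 6 of these 26 held the C/EBP-type motif, among them Cd8a and Klrk1, which were not highest on array C.

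The deposited values are log2 expression values, and the number of arrays limits their precision. Arrays of 1 group correlated with each other at r = 0.981 to 0.993 over all genes, and array medians lay between 4.93 and 5.12. As a stand-in for background, 1027 olfactory receptor genes were used, and the 95th percentile of their mean values, 4.67, is called the background level. Tlr4, the targeted gene, gave signal of 8.57 to 8.92 in wild-type sham, 8.14 to 8.48 in wild-type I/R, 8.15 to 8.47 in TLR4-/- sham and 7.62 to 8.40 in TLR4-/- I/R. The position of the deletion relative to these probes is unknown here, so the genotype labels could not be checked by this row. The 11 measured microglial genes averaged 11.20 ± 0.03 in wild-type sham, 10.88 ± 0.09 in wild-type I/R, 11.21 ± 0.05 in TLR4-/- sham and 10.88 ± 0.06 in TLR4-/- I/R (mean log2 value, SD over arrays).

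Of the 33 marker genes, 13 had a mean above the background level in at least 1 group. They were Cd3e, Cd4, Cd8a, Cd5 and Thy1 of the T cell class, Klrd1, Prf1 and Tbx21 of the NK class, Cd79b and Pax5 of the B cell class, and S100a9, Mmp9 and Mpo of the neutrophil class. Cd4, S100a9 and Mmp9 passed in 1 group only. Their means there were 4.73 in TLR4-/- sham for Cd4, 4.76 in wild-type I/R for S100a9 and 4.71 in TLR4-/- I/R for Mmp9. Within that group only array D lay above the level for Cd4, and only array C for S100a9. Against the 99th percentile of the olfactory receptor genes, 5.46, 5 of the 13 genes remained. The other 20 stayed within the background range in all 4 groups, among them Cd3d and Cd3g of the CD3 complex, Ncr1, which encodes the NK receptor NKp46, the granzyme genes Gzma and Gzmb, Cd79a, and Ms4a1, which encodes the B cell antigen CD20. A change in such a gene was measured against background signal. In bulk samples fewer cells of a type and less RNA per cell cannot be told apart.

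**Figure D1:**
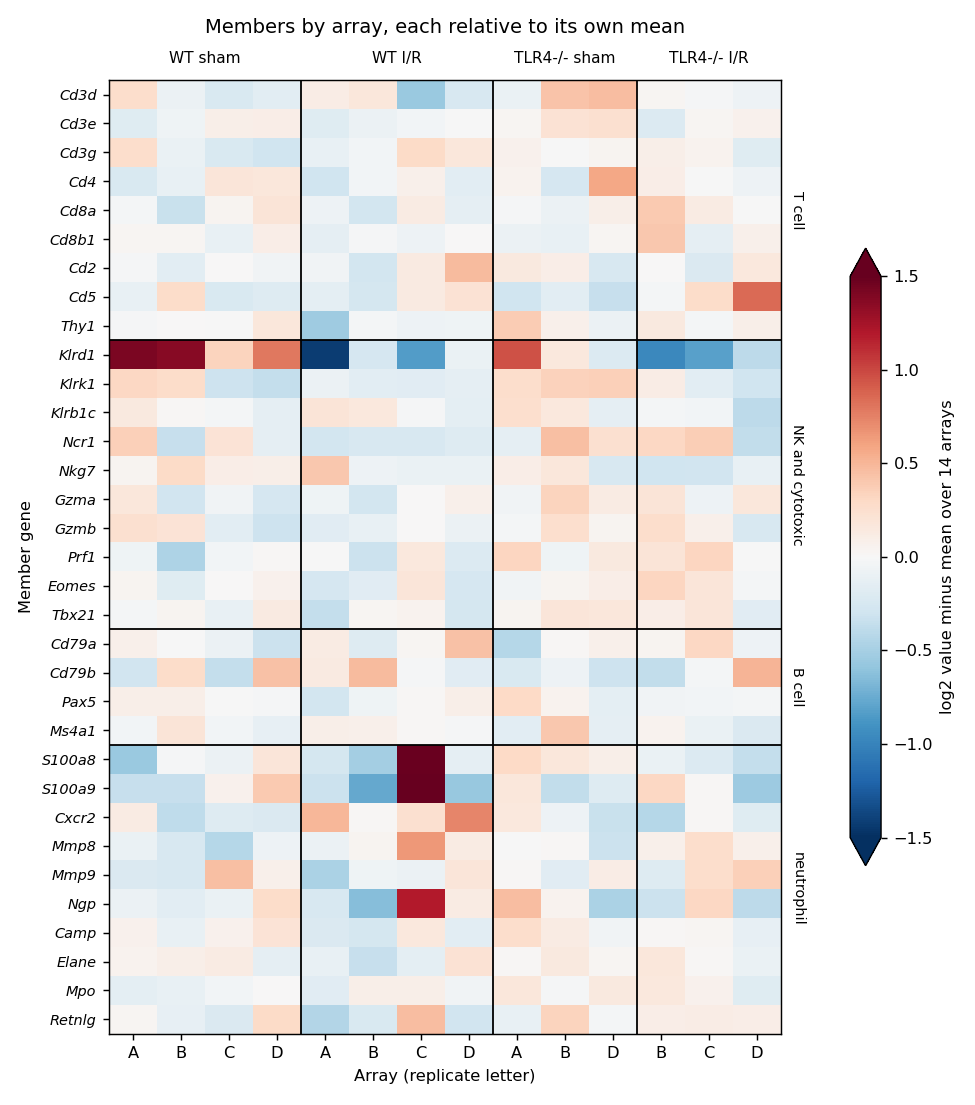
Log2 value of each of the 33 marker genes (vertical axis, grouped by class) on each of the 14 arrays (horizontal axis, grouped by genotype and surgery), as the difference from that gene's mean over the 14 arrays. Klrd1 is above its mean on all wild-type sham arrays, most on A and B, and on TLR4-/- sham arrays A and B. It is below its mean on every I/R array, only slightly on wild-type I/R array D, and on TLR4-/- sham array D. S100a8, S100a9 and Ngp stand out on wild-type I/R array C, where S100a9 reached 7.06.

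Across the marker genes, I/R was accompanied by few called differences. In wild type 2 of 33 genes passed limma's test at an adjusted p under 0.05, Klrd1 lower and Cxcr2 higher, against 9.78% of all 19938 genes (6.15% higher and 3.63% lower). In TLR4-/- mice 0 of 33 passed in limma, against 8.17% of all genes (5.04% higher and 3.13% lower). At an unadjusted p under 0.05 limma gave 3 of 33 (9.09%), against 20.3% of all genes. The median log2 change of the 33 genes was -0.07 in wild type, where that of all genes was -0.06, and -0.06 in TLR4-/-, where that of all genes was -0.03. By class the median in wild type was -0.07 for T cell genes, -0.11 for NK and cytotoxic genes, 0.06 for B cell genes and 0.10 for neutrophil genes, the last being -0.16 without wild-type I/R array C. In TLR4-/- these medians were -0.05, -0.09, 0.05 and -0.06 in the same order.

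**Figure D2:**
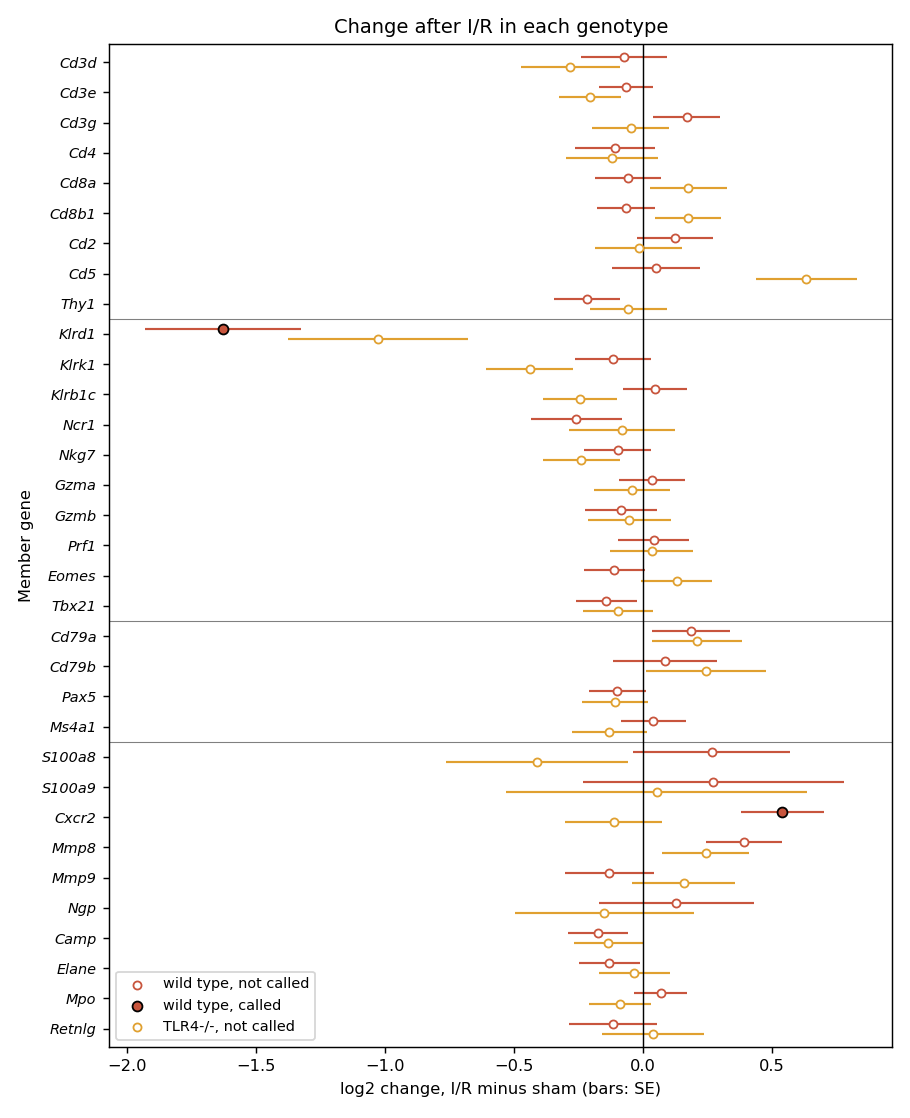
Log2 change from sham to I/R for each of the 33 marker genes in wild type (red) and TLR4-/- (yellow), with bars showing the standard error from limma and filled points marking genes called at an adjusted p under 0.05. Klrd1 lies far to the left in both genotypes, at -1.63 in wild type and -1.03 in TLR4-/-, and most other genes lie within their error of 0.

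Klrd1 encodes CD94, the shared chain that pairs with several NKG2 proteins to form an inhibitory or activating receptor of NK cells. In wild-type sham its log2 values were 6.37, 6.32, 5.29 and 5.75 on arrays A to D, and after I/R they were 3.53, 4.70, 4.12 and 4.85. Every I/R array was lower than every sham array, and the I/R mean lay within the background range. The log2 change was -1.63 (SE 0.30, limma adjusted p = 0.00187). With I/R values below the background level raised to it, Klrd1 was at least 2.31-fold lower after I/R. Klrd1 stayed called under each of 22 alternative settings, with log2 changes between -1.84 and -1.37 and limma adjusted p between 0.00084 and 0.00865.

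In TLR4-/- sham the Klrd1 values were 5.91, 5.11 and 4.75 on arrays A, B and D, and after I/R they were 3.99, 4.14 and 4.56 on arrays B, C and D. The groups did not overlap here either. The log2 change was -1.03 (SE 0.35, limma adjusted p = 0.0882), which missed the threshold with all 14 arrays in the fit and passed it when only the TLR4-/- arrays were fitted (limma adjusted p = 0.0389). The changes in the 2 genotypes differed by -0.60 (SE 0.46, limma adjusted p = 0.9998), so no difference between genotypes was shown.

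The remaining 9 NK and cytotoxic genes gave no called change in either genotype. Klrk1 encodes the activating receptor NKG2D, which does not pair with CD94. Its values lay between 2.24 and 2.96 on the 14 arrays, within the background range, with a change of -0.12 in wild type and -0.44 in TLR4-/- (SE 0.17, limma adjusted p = 0.140). Prf1, the perforin gene, was above the background level in every group, at 5.42 ± 0.22 in wild-type sham, 5.46 ± 0.22 in wild-type I/R (n = 4 each), 5.69 ± 0.20 in TLR4-/- sham and 5.73 ± 0.16 in TLR4-/- I/R (n = 3 each). Its changes after I/R were 0.04 in wild type and 0.03 in TLR4-/-, smaller than the spread between arrays.

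Tbx21 and Eomes encode the T-box factors that direct cytotoxic lymphocyte development. Tbx21 changed by -0.14 (SE 0.12) in wild type and -0.10 (SE 0.14) in TLR4-/-, and Eomes by -0.11 (SE 0.12) and 0.13 (SE 0.14). Ncr1 changed by -0.26 (SE 0.18) in wild type and -0.08 (SE 0.21) in TLR4-/-. None of these passed limma's test. For Nkg7, a cytotoxic granule membrane protein gene, the changes were -0.10 and -0.24, and for Klrb1c, which encodes the NK1.1 antigen, 0.05 and -0.24.

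The mean log2 value of the 10 NK and cytotoxic genes was 3.76 ± 0.13 in wild-type sham and 3.53 ± 0.04 in wild-type I/R, a difference of -0.23. In TLR4-/- it was 3.82 ± 0.07 in sham and 3.61 ± 0.11 in I/R, a difference of -0.21. Without Klrd1 these differences were -0.08 and -0.11. Klrd1 alone therefore made up most of the wild-type difference in this class mean.

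**Figure D3:**
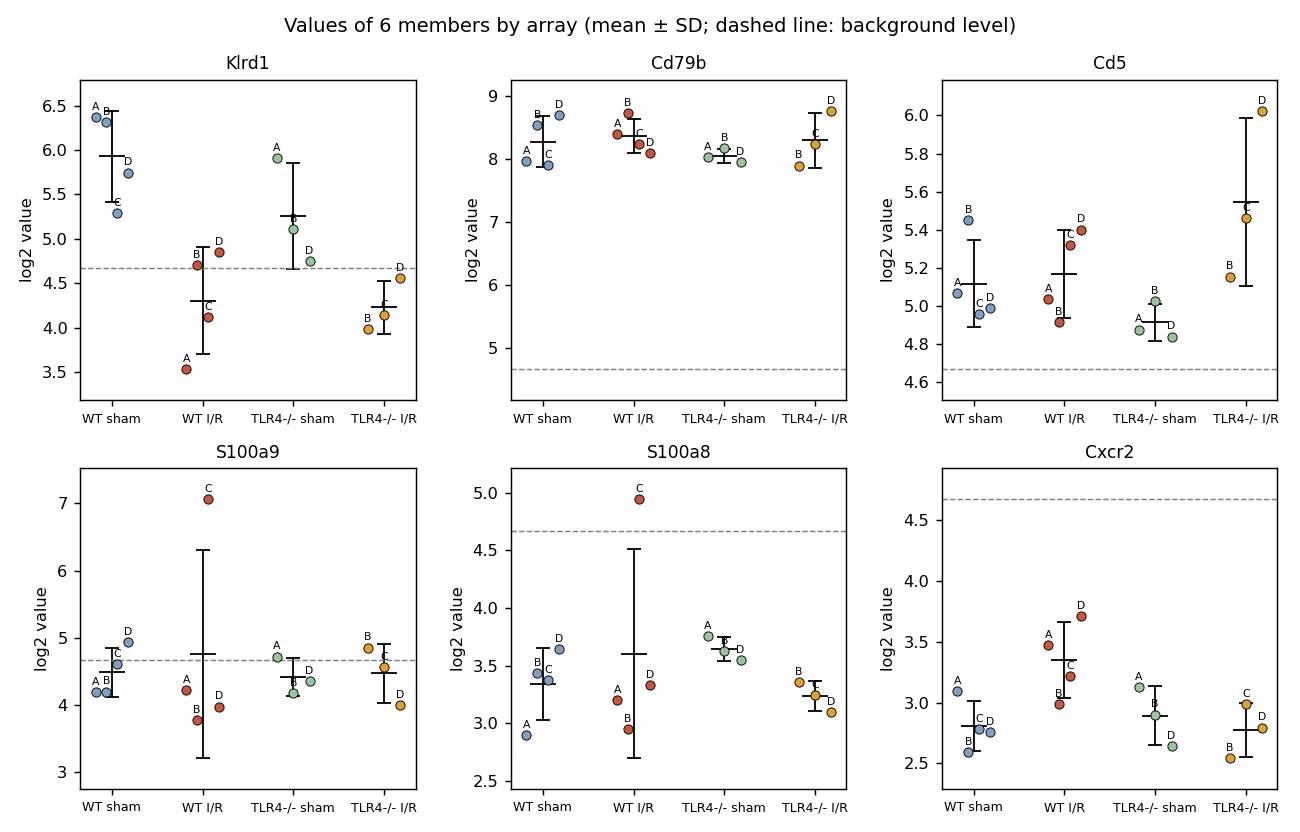
Log2 values of Klrd1, Cd79b, Cd5, S100a9, S100a8 and Cxcr2 by group, with 1 point per array labelled by its letter, bars for the mean ± SD and a dashed line at the background level of 4.67. The Klrd1 I/R points lie below all sham points within each genotype. For S100a9 and S100a8 the point of wild-type I/R array C lies far above all others. The S100a8 points of TLR4-/- sham and I/R do not overlap but lie below the dashed line, as do all Cxcr2 points.

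The neutrophil genes were set apart by 1 array. S100a9 had log2 values of 4.22, 3.78, 7.06 and 3.98 on wild-type I/R arrays A to D and 4.19, 4.20, 4.60 and 4.94 on the sham arrays. Array C stood alone, 2.12 log2 units (4.34-fold) above the next of the 14 arrays, which was the largest such gap of any gene on that array. S100a8 had values of 3.20, 2.95, 4.94 and 3.33 after I/R and 2.90, 3.44, 3.38 and 3.64 in sham. Its gap on array C was 1.19 log2 units, and because every other array lay within the background range, it was at least 1.21-fold higher there. No gene but these 2 had a gap above 1 on array C. Such gaps were not particular to this array. They were found for 9 genes on wild-type sham array A, and for 3 each on wild-type I/R array D, wild-type sham array C and TLR4-/- I/R array C. The largest gap on any other array was 1.95, on wild-type sham array C.

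Ngp read 3.32, 2.92, 4.75 and 3.68 on wild-type I/R arrays A to D, with a gap of 0.73 on array C, the only array on which it passed the background level. Mmp8 read 3.12, 3.25, 3.86 and 3.33, with a gap of 0.38. Retnlg read 3.43, 3.64, 4.34 and 3.59, with a gap of 0.14, and both genes lay within the background range on every array. In each of these 3 genes array C was again the highest of the 14, by much less than in S100a9.

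Array C was thus the highest of the 14 arrays for 5 of the 10 neutrophil genes, against 667 of all 19938 genes (3.35%). It was the highest for 1 of 9 T cell genes, 0 of 10 NK and cytotoxic genes and 0 of 4 B cell genes. Among the 22 measured neutrophil genes outside the marker set it was highest for 4 (18.2%, against the same 3.35% of all genes). TLR4-/- I/R array C was highest for 5 (22.7%, against 7.7% of all genes) and TLR4-/- sham array B for 4 (18.2%, against 11.5%). The mean of those 22 genes was 4.62 on wild-type I/R array C, within the 4.50 to 4.75 of all arrays. By its mean this wider list did not set the array apart, while the share of genes highest there was above that of all genes. Among 12 monocyte genes wild-type I/R array C was highest for 6. Of single genes, Lcn2, the lipocalin of neutrophil granules, read 5.26 on array C against at most 4.65 elsewhere, and Chil3, a chitinase-like gene of myeloid cells, read 5.20 against at most 4.44. Both were named after their values were seen, as was array C itself. Ly6g, the defining surface antigen of mouse neutrophils, read 3.04 on array C, at the upper end of the 2.33 to 3.04 over all arrays. All these values lay within the background range. The summed level of the 12 monocyte genes was also highest on array C, with a mean of 6.72 against 6.26, 6.26 and 6.51 on I/R arrays A, B and D, and 4.63 to 4.92 on the 7 sham arrays. The part of other cells in the array C values was not tested.

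**Figure D4:**
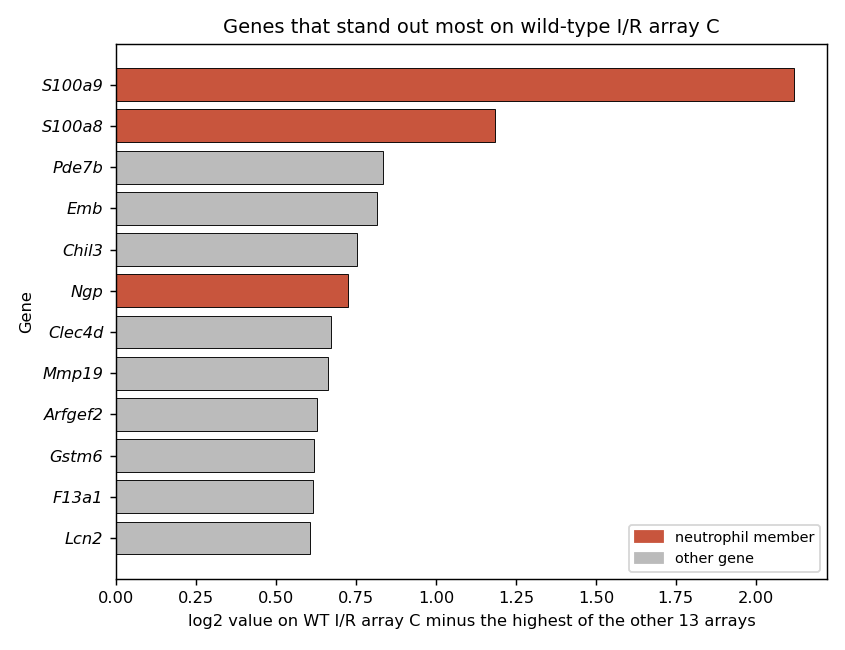
The 12 genes with the largest gap between wild-type I/R array C and the highest of the other 13 arrays, as a difference in log2 value (horizontal axis), with neutrophil marker genes in red and other genes in grey. S100a9 leads at 2.12, S100a8 follows at 1.19, and Ngp is at 0.73.

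The I/R changes of these genes depended on array C. In wild type S100a9 changed by 0.27 (SE 0.51, limma adjusted p = 0.800) with all arrays and by -0.49 without array C (limma adjusted p = 0.215). For S100a8 the values were 0.27 (limma adjusted p = 0.662) and -0.18, and for Ngp 0.13 (limma adjusted p = 0.844) and -0.23. Mmp8 kept a positive change, 0.39 (limma adjusted p = 0.112) with array C and 0.24 without it. Retnlg went from -0.12 (limma adjusted p = 0.743) to -0.31 (limma adjusted p = 0.216). None of the 5 genes passed limma's test either way.

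The S100a9 and S100a8 values of the TLR4-/- arrays lay closer together. S100a9 read 4.72, 4.18 and 4.35 in sham and 4.85, 4.56 and 3.99 after I/R, with overlapping groups and a change of 0.05 (SE 0.58). S100a8 read 3.76, 3.62 and 3.55 in sham and 3.36, 3.25 and 3.10 after I/R. The groups did not overlap, but all values lay within the background range and the change of -0.41 (SE 0.35) did not pass (limma adjusted p = 0.590).

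Cxcr2 encodes the chemokine receptor that draws neutrophils into tissue. It read 3.09, 2.59, 2.78 and 2.76 on wild-type sham arrays A to D and 3.47, 2.99, 3.22 and 3.71 after I/R, with sham array A inside the I/R range. The log2 change was 0.54 (SE 0.16, limma adjusted p = 0.0436), and every value lay within the background range. The call ended under 10 of 21 alternatives, including the loss of I/R array D, C or A, of sham array B, C or D, or of TLR4-/- I/R array D or TLR4-/- sham array B, with limma adjusted p between 0.0531 and 0.156. In TLR4-/- the change was -0.11 (SE 0.19), and the changes in the 2 genotypes differed by 0.65 (SE 0.25, limma adjusted p = 0.9998).

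The granule enzyme genes showed no called change. Mpo, the myeloperoxidase gene, was at 4.66 ± 0.07 in wild-type sham and 4.73 ± 0.12 in wild-type I/R, and at 4.84 ± 0.10 and 4.75 ± 0.18 in the TLR4-/- groups. Elane, the neutrophil elastase gene, changed by -0.13 (SE 0.12) in wild type and -0.03 (SE 0.14) in TLR4-/-. Camp, which encodes the cathelicidin peptide, changed by -0.17 (SE 0.12) and -0.13 (SE 0.13). Mmp9, the gelatinase gene, lay between 4.09 and 5.02 on all arrays and changed by -0.13 (SE 0.17) and 0.16 (SE 0.20). Retnlg changed by -0.12 (SE 0.17) in wild type and 0.04 (SE 0.20) in TLR4-/-.

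Over the 10 neutrophil genes the mean log2 value was 3.93 ± 0.12 in wild-type sham and 4.04 ± 0.42 in wild-type I/R. Without array C the I/R mean was 3.84 ± 0.15, so the difference from sham went from 0.11 to -0.09. In TLR4-/- the means were 4.005 ± 0.12 in sham and 3.96 ± 0.11 after I/R. Each of these differences was smaller than the spread of the arrays.

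**Figure D5:**
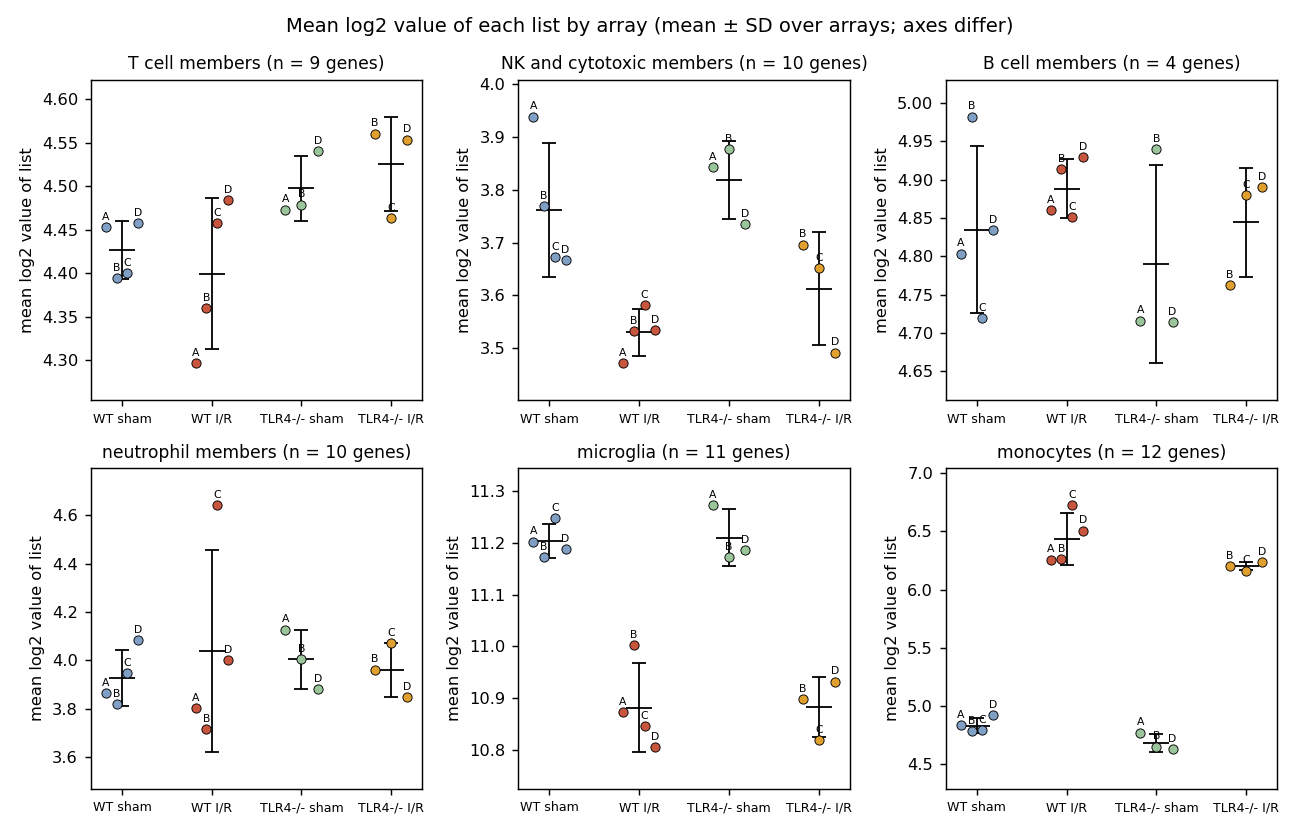
Mean log2 value of each marker class and, for comparison, of the microglial and monocyte lists, with 1 point per array and bars for the mean ± SD over the arrays of a group (vertical axes differ between panels). Wild-type I/R array C stands above the other arrays in the neutrophil panel at 4.64, the NK and cytotoxic panel is lower after I/R in both genotypes, and the T cell and B cell panels overlap between sham and I/R within each genotype.

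Among B cell genes, Cd79b was the member whose group means lay well above the background level. It encodes the beta chain of the CD79 signalling heterodimer and is also transcribed by microglia. Cd79b read 7.98, 8.54, 7.90 and 8.71 on wild-type sham arrays A to D and 8.40, 8.73, 8.24 and 8.10 after I/R. In TLR4-/- it read 8.04, 8.18 and 7.96 in sham and 7.90, 8.24 and 8.77 after I/R. The groups overlapped in both genotypes, and the changes of 0.09 (SE 0.20, limma adjusted p = 0.847) and 0.25 (SE 0.23, limma adjusted p = 0.638) did not pass.

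The other B cell genes gave no called change. Cd79a, the alpha chain gene, lay between 2.96 and 3.83 on all arrays, within the background range, and changed by 0.19 (SE 0.15) in wild type and 0.21 (SE 0.17) in TLR4-/-. Ms4a1 lay between 2.31 and 2.93, also within that range. Pax5, the transcription factor that fixes B cell identity, was at 5.23 ± 0.06 in wild-type sham, 5.13 ± 0.16 in wild-type I/R, 5.26 ± 0.22 in TLR4-/- sham and 5.15 ± 0.01 in TLR4-/- I/R. Its changes of -0.10 (SE 0.11) and -0.11 (SE 0.13) did not pass limma's test. The mean of the 4 genes was 4.83 ± 0.11, 4.89 ± 0.04, 4.79 ± 0.13 and 4.84 ± 0.07 in wild-type sham, wild-type I/R, TLR4-/- sham and TLR4-/- I/R.

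The T cell genes likewise gave no called change. The mean of the 9 genes was 4.43 ± 0.03 in wild-type sham, 4.40 ± 0.09 in wild-type I/R, 4.50 ± 0.04 in TLR4-/- sham and 4.53 ± 0.05 in TLR4-/- I/R. None of the CD3 chain genes passed. Cd3e changed by -0.07 (SE 0.10) in wild type and -0.20 (SE 0.12) in TLR4-/-, Cd3d by -0.07 (SE 0.17) and -0.28 (SE 0.19), and Cd3g by 0.17 (SE 0.13) and -0.05 (SE 0.15). Of the co-receptor genes, Cd4 changed by -0.11 and -0.12, Cd8a by -0.06 and 0.18, and Cd8b1 by -0.07 and 0.17, in wild type and TLR4-/- in that order. Cd2, an adhesion receptor gene of T and NK cells, changed by 0.12 and -0.02.

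Cd5, a receptor that dampens T cell receptor signalling and is also found on a B cell subset, came closest to a call. It read 4.88, 5.02 and 4.84 on TLR4-/- sham arrays A, B and D and 5.15, 5.46 and 6.02 on TLR4-/- I/R arrays B, C and D. The groups did not overlap, and the change was 0.63 (SE 0.20, 1.55-fold, limma adjusted p = 0.0582). It passed with array weights (0.0375), without dim genes (0.0445), and without TLR4-/- I/R array B (0.0161) or wild-type sham array B (0.0480), all limma adjusted p. It did not pass under the other settings, and without TLR4-/- I/R array D the change was 0.39 (limma adjusted p = 0.242). In wild type Cd5 read 5.07, 5.45, 4.96 and 4.99 in sham and 5.04, 4.91, 5.32 and 5.40 after I/R, a change of 0.05 (SE 0.17). The difference between the genotypes' changes was -0.58 (SE 0.26, limma adjusted p = 0.9998).

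TLR4-/- I/R array D gave the highest Cd5 value, 0.57 log2 units above the next array, the gap ranked 5 among all genes on that array. The genes Ndrg2 (rank 1), Bcas1 (rank 2) and S100b (rank 6), which are known in astrocytes and oligodendrocytes, also stood out on it and were named after their values were seen. Whether other cells contributed to the Cd5 value was not tested. The largest gaps on that array were smaller than those of S100a9 and S100a8 on wild-type I/R array C.

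Thy1 encodes a surface glycoprotein of T cells that neurons carry as well. It lay between 4.88 and 5.79 and changed by -0.22 (SE 0.13) in wild type and -0.06 (SE 0.15) in TLR4-/-. Its lowest value came from wild-type I/R array A. That array also had the lowest mean over 12 neuronal genes, 4.12 against 4.27 to 4.70 on the other arrays. At the upper end the 2 did not go together. Thy1 was highest, at 5.79, on TLR4-/- sham array A, where the neuronal mean was 4.47. The neuronal mean was highest, at 4.70, on TLR4-/- sham array B, where Thy1 read 5.49. Wild-type I/R array A had the lowest mean of the T cell class, of the NK and cytotoxic class, of 17 other B cell and plasma cell genes and of 11 dendritic cell genes. It was the lowest array for 9 of the 33 marker genes (27.3%), against 8.2% of all genes. The part of neuronal RNA in the Thy1 values was not tested.

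Other genes of the same classes were examined beside the markers. Of all 19938 genes, 9.78% were called in wild type and 8.17% in TLR4-/-. The called share of the other genes was above these shares in the B cell list only. Of 21 measured T cell genes 2 (9.52%) were lower in wild type and 1 (4.76%) in TLR4-/-. Il7r, the interleukin-7 receptor gene, changed by -0.71 (SE 0.18, limma adjusted p = 0.0148) in wild type and -1.02 (SE 0.20, limma adjusted p = 0.00393) in TLR4-/-, and the wild-type call ended without I/R array C or D (0.0505 and 0.0566). Gata3, a transcription factor gene of T helper cells, changed by -0.41 in wild type (limma adjusted p = 0.0367) within the background range, and that call ended under 8 of 21 alternatives, up to an adjusted p of 0.125. They included leaving out I/R array A, B or D or sham array C or D.

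Of 20 measured NK and cytotoxic genes outside the marker set, 1 (5%) was called in each genotype, against 9.78% of all genes in wild type and 8.17% in TLR4-/-. Il18rap, a chain of the interleukin-18 receptor, rose by 0.78 (SE 0.17, limma adjusted p = 0.00612) in wild type and by 0.97 (SE 0.20, limma adjusted p = 0.00464) in TLR4-/-. It moved opposite to Klrd1, and both calls held under all 21 alternatives.

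Of 17 measured B cell and plasma cell genes, 1 was higher and 2 were lower in each genotype. The called share was 17.6% in each, against 9.78% of all genes in wild type and 8.17% in TLR4-/-. Cd22, an inhibitory lectin gene of B cells that microglia can also express, rose by 0.67 (SE 0.13, limma adjusted p = 0.00263) in wild type and by 0.74 (SE 0.15, limma adjusted p = 0.00465) in TLR4-/-. Bank1, a scaffold gene of B cell receptor signalling, fell by 1.27 on the log2 scale in wild type (SE 0.18, limma adjusted p = 0.000135) and by 1.01 in TLR4-/- (SE 0.21, limma adjusted p = 0.00514). These 4 calls held under all 22 alternatives. Fcrl1, an Fc receptor-like gene, was lower in wild type (-0.69, limma adjusted p = 0.0237), and Blnk, the linker of the B cell receptor that is also transcribed in macrophages, was lower in TLR4-/- (-0.43, limma adjusted p = 0.0371). The Fcrl1 call ended under 6 alternatives, among them the loss of sham array A or of I/R array A, C or D (limma adjusted p up to 0.0854). The Blnk call ended under 8, among them the loss of TLR4-/- I/R array B or C, TLR4-/- sham array A or D, or wild-type I/R array A, and the fit with the replicate letter as a block (limma adjusted p up to 0.152). These genes had values well above background while Cd79a and Ms4a1 did not.

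Of 22 measured neutrophil genes outside the marker set, 1 (4.55%) was called in each genotype, against 9.78% of all genes in wild type and 8.17% in TLR4-/-. Lrg1, which encodes a secreted leucine-rich glycoprotein, rose by 0.64 in wild type (SE 0.17, limma adjusted p = 0.0199), and its call ended without I/R array A or C (0.0614 and 0.0569). Csf3r, the receptor gene for granulocyte colony-stimulating factor, which microglia also transcribe, fell by 0.55 on the log2 scale in TLR4-/- (SE 0.16, limma adjusted p = 0.0472). That call ended under 13 of 22 alternatives, including the loss of any wild-type I/R array, of wild-type sham array B or D, of TLR4-/- I/R array B or C, or of any TLR4-/- sham array (limma adjusted p up to 0.208).

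Genotype was compared within each surgery and over the I/R change. Between TLR4-/- and wild-type sham 0 of the 33 marker genes passed limma's test, against 0.00502% of all genes, and 1 (3.03%, Klrk1) had an unadjusted p under 0.05, against 5.24% of all genes. Between TLR4-/- and wild type after I/R 0 of 33 passed in limma, against 0.0201% of all genes, and 2 (6.06%) had an unadjusted p under 0.05, against 8.47% of all genes. For the difference of the I/R changes 0 of 33 passed in limma, against 0% of all genes, and 2 (6.06%, Cxcr2 and Cd5) had an unadjusted p under 0.05, against 3.82% of all genes.

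Klrd1 was 0.67 log2 units lower in TLR4-/- sham than in wild-type sham (SE 0.33, limma adjusted p = 0.920), with TLR4-/- array A inside the wild-type range. After I/R the 2 genotypes differed by -0.07 (SE 0.33). Cxcr2 differed by -0.57 after I/R (SE 0.17, limma adjusted p = 0.477), at 2.55, 2.99 and 2.79 in TLR4-/- and 2.99 to 3.71 in wild type. The median genotype difference of the 33 genes was 0.07 in sham and 0.04 after I/R, where the medians of all genes were 0.01 and 0.03.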

How the data were processed

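RNA of sorted microglia was hybridised to Affymetrix Mouse Gene 1.0 ST arrays, 1 sample per array. The authors deposited log2 expression values, made with RMA in the oligo package per the submitters' processing notes, with no versions given. RMA corrects background, brings arrays to a common distribution, which can hide a shift shared by all genes, and summarises the probes of a row. Of 35556 rows, 21789 had 1 gene symbol, 1621 several and 12146 none. The highest-mean row stood for each of 19938 genes.

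All genes were fitted in limma 3.58.1 (R 4.3.3) with 4 group means over 14 arrays, Benjamini-Hochberg adjustment over all genes and a threshold of 0.05. The fit was tested on simulated data. Class means are descriptions with no test. The marker genes and lists were chosen with earlier results of these data known. Any marker gene was named, and from each list of other genes of a class up to 4 called genes by smallest p, other names being marked. Alternatives covered centring, variance model, array weights, the groups in the fit, a replicate block, dim genes, the row rule and arrays left out. Promoter windows came from RefSeq.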

Additional observations from a re-analysis of the deposited data

Results flagged for a closer look

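In groups of 4 arrays, a single value was set against the rest by Dixon's test at the 95% level, which singles out about 1 group in 20 by chance. Of 74 groups examined (marker genes and class means), 6 were singled out. S100a9 read 7.06 on wild-type I/R array C, against 3.78 to 4.22 on the other 3 arrays of its group. Nkg7 read 4.40 on wild-type I/R array A, against 3.89 to 3.91. Thy1 read 4.88 on wild-type I/R array A, against 5.34 to 5.39, and 5.59 on wild-type sham array D, against 5.40 to 5.42. Prf1 read 5.10 on wild-type sham array B, against 5.49 to 5.57. Ngp read 3.83 on wild-type sham array D, against 3.40 to 3.47, within the background range. Only the S100a9 value was more than 1 log2 unit from the others.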

How the results depend on the processing

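The number of marker genes called in wild type was 2, and 1 without dim genes (10 marker genes tested), without wild-type sham array C and TLR4-/- I/R array D together, or with only the groups compared. It was 1 to 2 with each array left out. In TLR4-/- it was 0, and 1 with array weights or without dim genes (Cd5) or with only the groups compared (Klrd1), and 0 to 1 with each array left out. It stayed at 0 for the difference of changes and both genotype comparisons in every setting run. With the replicate block (the letter of the titles) 2 genes were called in wild type and 0 in TLR4-/-. Same-letter arrays had deviations that correlated at -0.06 to 0.13 in wild type and 0.05 to 0.14 in TLR4-/-. Over all 18 same-letter pairs the range was -0.10 to 0.28. The letters were not taken to pair arrays in the main fit. Pairs with different letters were not set beside these, so whether a letter links arrays was not tested.

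Dropping dim genes leaves fewer genes in a class. The T cell mean then differed by 0.14 between I/R and sham in TLR4-/- (0.03 with all genes), by 0.021 between genotypes in sham (0.07, and 0.029 with each array centred) and by 0.23 after I/R (0.13). The NK and cytotoxic mean differed by -0.58 between I/R and sham in wild type (-0.23, and -0.077 without Klrd1, a setting chosen after seeing the data), by -0.36 in TLR4-/- (-0.21) and by -0.092 between genotypes in sham (0.06). Leaving out arrays, the wild-type difference ran from -0.09 to 0.22 for neutrophil genes, -0.26 to -0.17 for NK and cytotoxic genes, -0.06 to 0.01 for T cell genes and 0.02 to 0.10 for B cell genes. In TLR4-/- these ranges were -0.10 to 0.02, -0.25 to -0.15, 0.01 to 0.06 and 0.02 to 0.13. Above the 99th percentile of olfactory receptor genes stood 5 marker genes in place of 13. With 3 or 4 arrays a group and 20 marker genes within the background range, small changes in these genes could not be seen. No called result changed sign. Some class differences, which were not tested, did so. Among them, as given above, were the I/R differences of the neutrophil genes in both genotypes and of the T cell genes in wild type. The NK and cytotoxic difference between genotypes in sham did so without dim genes. With arrays left out, the neutrophil difference between genotypes after I/R ran from -0.19 to 0.12, and the B cell difference between genotypes in sham from -0.12 to 0.004. The neutrophil median change in wild type ran from -0.16 to 0.21 with each array left out.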
